A study of Mus musculus with 12 samples.

Results

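The zinc-finger genes described here are the 189 mouse genes whose symbol is Zfp followed only by digits and whose mean deposited level over the 12 libraries of the study was at least 60. They were taken from 312 genes with such symbols among the 19708 entries of the expression table, after Zfp36, Zfp42 and Zfp296 had been set aside by name. Members were thus selected on their mean level, so that level is given as a description, and a gene could pass through 1 condition in which it was high. The libraries are 3′-end sequencing of poly(A) RNA from C57BL/6 mouse cells, made after transcription was blocked with actinomycin for 0, 4 or 8 h. The 4 conditions were Mettl3-KO embryonic stem cells (KO ESCs), WT ESCs, Mettl3-KO embryoid bodies (KO EBs) and WT EBs, with 1 library at each time and no replicate in any group. Mettl3 is the enzyme that places N6-methyladenosine (m6A) on mRNA, and the study asked what this mark does as cells leave naive pluripotency. ESCs of both genotypes were kept without serum in N2B27 medium with LIF and the inhibitors CHIR99021 and PD0325901, and EBs are aggregates that differentiate in serum medium without them, here in low-attachment plates for between 8 and 21 days. The labels do not give how the knockout was made, whether each genotype is 1 clone, or whether the times of a condition share a culture.

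Zinc fingers of the C2H2 kind are short folds held by a zinc ion, and proteins with rows of them bind DNA, and some bind RNA. Many mammalian members carry a KRAB box, which recruits the co-repressor Trim28 and with it histone methylation, and silence transposable elements or imprinted genes. Genes of this family lie in clusters of similar copies, and their mRNAs are known for short lives and for m6A in the long coding exon that holds the fingers. Neither m6A nor half-lives were measured in these libraries, which give levels before and after transcription was blocked.

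The members were rich in fingers and in a short word that often stands in the linker between fingers. A KRAB box was found in 89 members and not in 100, and the median number of fingers was 10, with 12 in KRAB members, 7.5 in the others and 34 in Zfp142 and Zfp462, which had the most. The 6 members in which no finger matched the pattern searched stayed in the set by their symbol. In the linker, the codons for lysine and proline are often read aaa and cct or ccc, which makes the word AAACC, one of the forms of the sequence at which m6A is written. Both AAACC and the commoner m6A word GGACT were searched on the sense strand of the last 600 coding bases. The 2 words cannot overlap, and a match is a description of the letters, not a methylated site. At least 1 AAACC stood in 71.04% of the 183 members with enough coding sequence (2.191 on average), against 42.31% of the 10946 tested genes with such a window (0.6196 on average). Of the 401 AAACC in the members' windows, 303 (75.56%) stood in the frame that reads lysine and proline. The share of members with AAACC was 87.5% in KRAB members and 55.79% in the others. GGACT was found in 43.72% of members and in 51.73% of the tested genes.

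Stretches of 180 coding bases from 5 members are printed here to show how the word recurs, 5′ to 3′ on the coding strand, with AAACC in capitals. They are from the GENCODE M21 transcripts on GRCm38. Zfp933 (chr4:147825821-147826000, minus strand) and Zfp791 (chr8:85109705-85109884, minus strand) had the highest levels of all members, Zfp184 (chr13:21959977-21960156, plus strand) was higher in KO cells of both types, and Zfp992 (chr4:146467288-146467467, plus strand) and Zfp560 (chr9:20347718-20347897, minus strand) were higher in KO ESCs. The stretches of Zfp933, Zfp791, Zfp184 and Zfp992 hold 3 AAACC each and that of Zfp560 holds 1. In the frame for lysine and proline stand all 3 of Zfp933, all 3 of Zfp992, 2 of the 3 in Zfp184, 1 of the 3 in Zfp791 and the 1 of Zfp560, and the other capitals are not that pair of codons. Over the last 600 coding bases the numbers are 4 in Zfp933, 4 in Zfp791, 4 in Zfp184, 7 in Zfp992 and 1 in Zfp560.
Zfp933: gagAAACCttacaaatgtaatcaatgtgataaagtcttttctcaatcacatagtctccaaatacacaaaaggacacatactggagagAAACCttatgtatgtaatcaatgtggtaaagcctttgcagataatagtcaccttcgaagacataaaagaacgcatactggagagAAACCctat
Zfp791: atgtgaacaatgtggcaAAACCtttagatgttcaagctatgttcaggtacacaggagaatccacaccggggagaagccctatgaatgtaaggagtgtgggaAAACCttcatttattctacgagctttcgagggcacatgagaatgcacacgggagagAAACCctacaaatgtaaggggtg
Zfp184: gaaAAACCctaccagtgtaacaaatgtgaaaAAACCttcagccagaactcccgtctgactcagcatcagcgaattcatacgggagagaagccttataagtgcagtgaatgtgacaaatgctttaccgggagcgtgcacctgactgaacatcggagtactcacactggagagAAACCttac
Zfp992: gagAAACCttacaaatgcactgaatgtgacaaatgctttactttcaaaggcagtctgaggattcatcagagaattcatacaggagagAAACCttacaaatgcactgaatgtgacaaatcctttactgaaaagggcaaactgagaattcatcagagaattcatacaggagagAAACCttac
Zfp560: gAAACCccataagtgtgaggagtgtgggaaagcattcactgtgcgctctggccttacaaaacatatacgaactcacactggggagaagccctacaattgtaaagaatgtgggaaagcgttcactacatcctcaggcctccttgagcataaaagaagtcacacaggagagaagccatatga

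**Figure D1:**
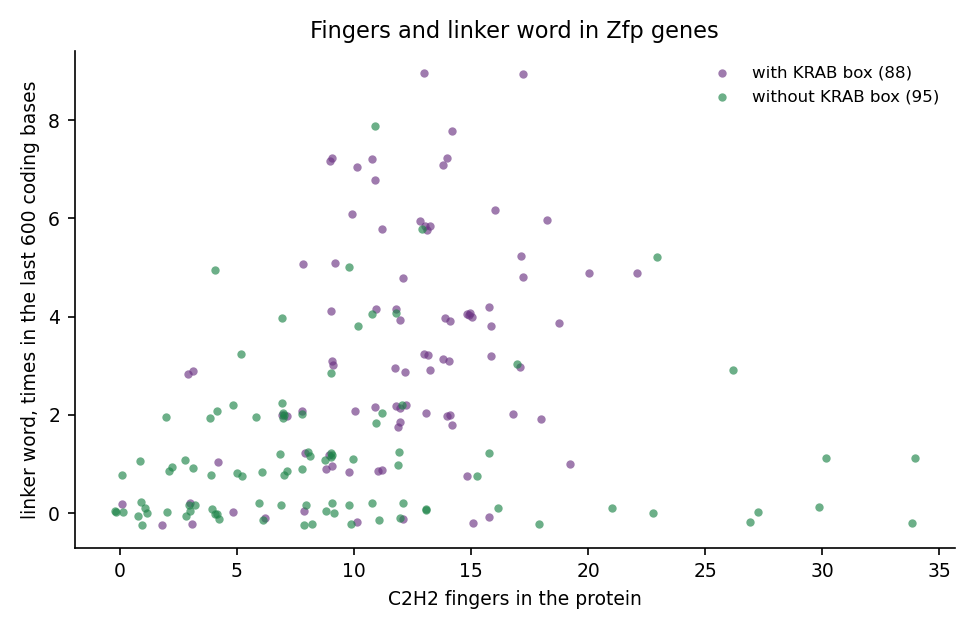
Number of C2H2 fingers (horizontal axis) and of AAACC words in the last 600 coding bases (vertical axis) for members with a KRAB box and without one, each point 1 gene, moved slightly at random so that points do not hide each other. KRAB members lie toward more fingers and more AAACC, with means of 3.307 words in KRAB members and 1.158 in the others.

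Many members lie close to another member of the family. Of the 189 members, 98 had another Zfp gene within 200 kb, among them 68 of the 89 KRAB members and 30 of the 100 others. Chromosome 7 held 46 members (21 with a KRAB box), chromosome 17 held 20, chromosome 4 held 15 and chromosome 9 held 13. For 14 members, the last 300 bases of the transcript had a copy of at least 95% identity over at least 100 bases elsewhere in the transcriptome. The end of Zfp991 matched a transcript of Zfp992, also on chromosome 4, over 297 bases at 99.3% identity. The end of Zfp992 itself had no such copy. Zfp935 matched a predicted gene over 300 bases at 100%. Levels of members with a copy are uncertain where reads could be split between copies.

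The level is the authors' deposited normalized signal, in its own units, and 3′-end reads are not scaled by gene length. The low values of each library go up in even steps, from which read numbers were inferred. They summed to between 208872 and 666799 read equivalents per library, and a member had a median of 6.02 to 12.48 read equivalents in KO EBs, 4.4 to 8.52 in KO ESCs, 3.64 to 9.52 in WT EBs and 2.44 to 9.12 in WT ESCs. No member was at 0 in any 0 h library, and 21 were at 0 in WT ESCs at 8 h, where a count of 0 allows a level of up to 98.14. Genes of families expected to be silent were above 0 for 26.7% to 36.2% of 1420 genes in EBs and 6.69% to 9.51% in ESCs. The WT EB library of 8 h had the smallest total, with 49.8% of all entries at 2 to 6 read equivalents. Mettl3 itself was at 98.1, 65.4 and 41.8 at 0, 4 and 8 h in KO ESCs, against 251, 64.8 and 112 in WT ESCs, and in EBs at 16.8, 40.7 and 84.0 with the knockout, against 175, 86.0 and 77.4 in WT EBs. It stayed above 0 in all KO libraries, and neither difference passed the test (limma adjusted p = 0.311 in ESCs and 0.175 in EBs). Summed levels of 10 pluripotency markers were 28690 to 35700 in KO EBs, 10140 to 38040 in WT EBs, 47700 to 53390 in KO ESCs and 79100 to 87190 in WT ESCs, with none of the 10 at 0 in any library. Summed levels of 10 endoderm markers were 360 to 549 in KO EBs, 9146 to 12650 in WT EBs and 548 to 732 in ESCs of both genotypes. Defining markers were at 0 in many libraries, among them Foxa2 and Sox17 in KO EBs at 8 h and Foxa2 in WT EBs at 8 h. In every ESC library at least 1 of Foxa2, Gata6 and Sox17 was at 0. The mesoderm markers T and Hand2 were at 0 in both EB libraries of 0 h. In both EB libraries of 8 h, 4 mesoderm and heart markers and the neural marker Sox1 were at 0. Summed levels of 7 mesoderm and heart markers were 128.0 to 223.5 in EBs and 63.9 to 304.2 in ESCs, those of 6 neural markers 370.1 to 760.7 in EBs and 701.7 to 1062 in ESCs, and those of 6 fibroblast markers 747.9 to 907.5 in KO EBs, 1867 to 2348 in WT EBs, 639.7 to 1243 in KO ESCs and 537.8 to 1774 in WT ESCs.

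Most members were expressed at low levels. The median of their mean levels was 117.4, 141 of the 189 were under 200, and 8 were above 1000. Zfp933, a KRAB gene with 12 fingers on chromosome 4, had the highest mean level, 3801. Its level at 0, 4 and 8 h was 4146, 4492 and 4456 in KO ESCs and 4030, 5210 and 3628 in WT ESCs. In EBs it was 3602, 3621 and 3410 in KO EBs and 4018, 3298 and 1699 in WT EBs, so that WT EBs at 4 and 8 h were lowest among the 12 libraries. The next by mean level were Zfp791 (3076), Zfp106 (1547), an RNA-binding protein, Zfp706 (1492), which is needed for timely exit from self-renewal, Zfp57 (1426), a keeper of imprints, and Zfp935 (1397). At the threshold, Zfp799, Zfp52 and Zfp101 stood just inside with means of 61.98, 61.97 and 61.86, and Zfp109, Zfp60 and Zfp248 stood just outside with 59.95, 59.85 and 59.51. The genes set aside by name were Zfp42, the pluripotency marker Rex1, at a mean of 2089, Zfp296, another pluripotency factor, at 359.1, and Zfp36, the RNA-decay factor tristetraprolin, at 48.44.

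After transcription was blocked, members kept less of their starting level than genes did in general. At 8 h the median member had 75.41% of its 0 h level in KO ESCs and 37.72% in WT ESCs, where the median of all tested genes was 93.34% in KO ESCs and 76.36% in WT ESCs. In EBs the median member had 62.24% left in KO EBs and 36.89% in WT EBs, where the median of all tested genes was 83.03% in KO EBs and 48.97% in WT EBs. At 4 h the members' medians were near their 8 h values in ESCs, at 73.48% in KO ESCs and 41.66% in WT ESCs, and above them in EBs, at 73.32% in KO EBs and 47.76% in WT EBs. Less than 50% was left at 8 h for 59 of the 189 members in KO ESCs (31.22%), 117 in WT ESCs (61.9%), 74 in KO EBs (39.15%) and 116 in WT EBs (61.38%). Among all tested genes that share was 19.59% in KO ESCs, 31.53% in WT ESCs, 19.65% in KO EBs and 50.86% in WT EBs. These shares are ratios of single libraries and carry no test, and in bulk RNA fewer cells of a type and less RNA per cell cannot be told apart.

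**Figure D2:**
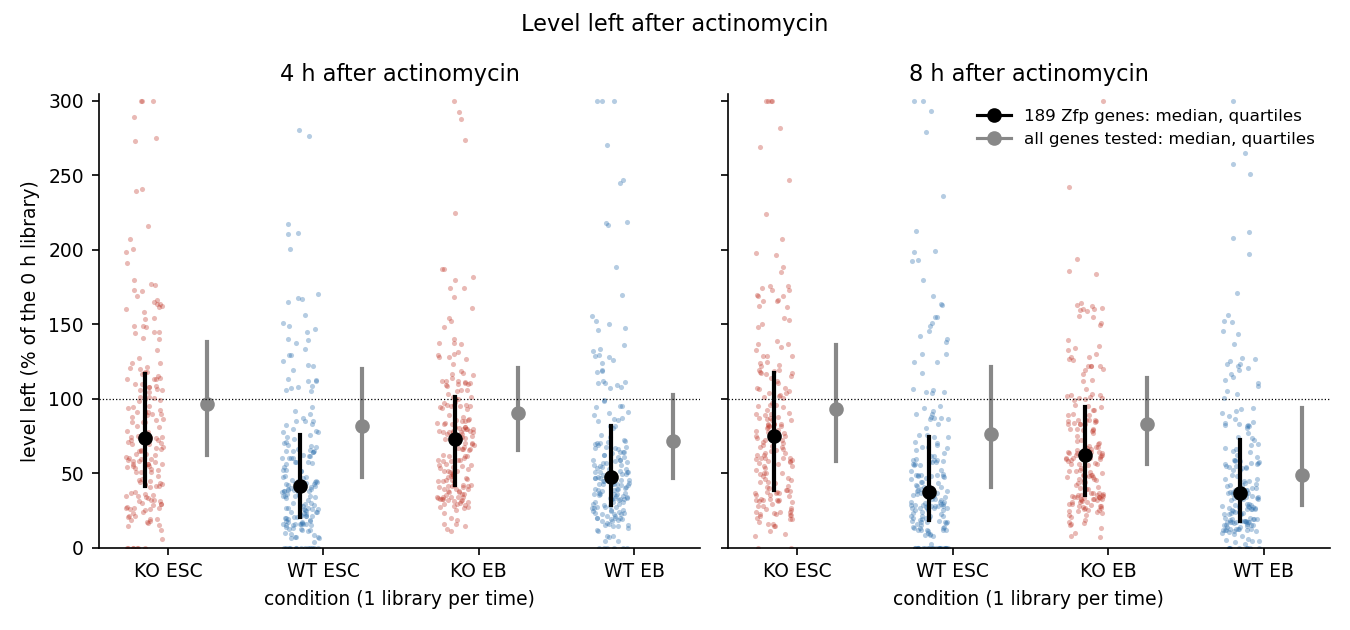
Percent of the 0 h level left at 4 h and 8 h in each condition for each member (points) with the median and quartiles of the members and of all tested genes (large dots and bars), on the deposited scale. The members' medians lie below those of all tested genes in every condition, and 15 points above 300% are drawn at 300%.

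The gap was also present among members of low level. Members with a mean level under 200 had 70.16% left at 8 h in KO ESCs, 36.85% in WT ESCs, 61.69% in KO EBs and 43.43% in WT EBs. Tested genes with a mean level of 60 to 200 had 86.73% left in KO ESCs, 73.83% in WT ESCs, 82.69% in KO EBs and 72.64% in WT EBs. The share left was higher in KO than in WT cells for 133 of the 189 members at 8 h in ESCs (70.37%, against 61.52% of all tested genes) and for 132 in EBs (69.84%, against 69.99% of all tested genes). In ESCs 103 members (54.5%) had a higher share left in KO cells at both 4 and 8 h, against 42.59% of all tested genes, and in EBs 96 members (50.79%) did so, against 54.79%. Among members under 200 it was higher at 8 h for 68.09% in ESCs and 65.25% in EBs. Tested genes at 60 to 200 had 56.17% and 55.37%. At both times it was higher for 51.77% of these members in ESCs and 44.68% in EBs, against 40.71% and 40.48% of those genes.

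The scale of the libraries moved the shares in WT EBs more than in the other conditions. With column totals set equal, the members' median at 8 h was 70.48% in KO EBs and 83.45% in WT EBs. All tested genes had 94.01% and 110.8%. The deposited order of KO and WT EBs at 8 h was thus reversed. It was also reversed with ribosomal protein scaling (59.54% in KO EBs and 86.73% in WT EBs) and median-ratio scaling (77.24% and 79.93%). At 4 h equal totals gave 75.45% in KO EBs and 65.53% in WT EBs. In ESCs at 8 h they gave 71.07% in KO ESCs and 41.34% in WT ESCs, where all tested genes had 87.98% and 83.7%. Scaled by ribosomal protein genes, the members' median at 8 h was 56.75% in KO ESCs and 31.13% in WT ESCs. Under these scalings and the median-ratio one, the members' median stayed below that of all tested genes in all 4 conditions at 4 and at 8 h.

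The share left was set side by side for members with and without a KRAB box, with many and with no AAACC, and with and without a neighbour. At 8 h KRAB members had a median of 78.65% in KO ESCs, 37.26% in WT ESCs, 62.56% in KO EBs and 41.84% in WT EBs. Members without one had 73.88% in KO ESCs, 38.09% in WT ESCs, 61.97% in KO EBs and 33.71% in WT EBs. At 4 h KRAB members had 62.8% in KO ESCs, 39.42% in WT ESCs, 77.44% in KO EBs and 48.57% in WT EBs. Those without had 85.51% in KO ESCs, 46.26% in WT ESCs, 70.43% in KO EBs and 46.19% in WT EBs. The order in KO ESCs thus differed between 4 and 8 h. The 64 members with at least 3 AAACC had 68.09% left at 8 h in KO ESCs and 37.98% in WT ESCs, and the 53 with none had 70.16% in KO ESCs and 42.31% in WT ESCs. In EBs those with at least 3 had 65.09% in KO EBs and 42.52% in WT EBs, and those with none 64.18% in KO EBs and 32.97% in WT EBs. At 4 h those with at least 3 had 66.79% in KO ESCs, 40.32% in WT ESCs, 77.99% in KO EBs and 47.47% in WT EBs. Those with none had 74.44% in KO ESCs, 42.39% in WT ESCs, 73.78% in KO EBs and 43.37% in WT EBs. At 8 h members with a Zfp gene within 200 kb had 75.21% left in KO ESCs, 31.58% in WT ESCs, 62.77% in KO EBs and 36.51% in WT EBs, and those without such a neighbour had 76.93% in KO ESCs, 43.55% in WT ESCs, 60.87% in KO EBs and 36.89% in WT EBs. At 4 h those with a neighbour had 63.94% in KO ESCs, 32.23% in WT ESCs, 69.52% in KO EBs and 45.95% in WT EBs, and those without had 87.94% in KO ESCs, 57.35% in WT ESCs, 76.65% in KO EBs and 49.48% in WT EBs.

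The decline over time was fitted as a line per condition on the log2 scale, with the threshold at a limma adjusted p of 0.05 over all 12704 genes tested. The p-values rest on how far the times lie from straight lines, pooled over the 4 conditions, and on a prior drawn from all tested genes. They do not rest on replicate cultures. Where the 0 h or the 8 h library of a condition is left out, its line fits the remaining libraries exactly and has less precision by design. Its level is then that of the 4 h library alone. A call lost there does not by itself show that the call depended on the library left out. In WT ESCs 25 members fell and 1 rose, 13.23% falling, where 5.35% of all tested genes fell and 0.157% rose. The median slope was -0.161 per hour over the members and -0.0439 over all tested genes. Of the members under a mean level of 200, 11.35% fell, against 3.604% of the tested genes at 60 to 200. In WT EBs 39 members fell and 1 rose, 20.63% falling, where 26.7% of all tested genes fell and 0.126% rose. The members' share is under that of all tested genes there, a background not matched for level. Of the members under a mean level of 200, 7.801% fell in WT EBs, against 5.397% of the tested genes at 60 to 200. In KO ESCs and KO EBs 0 members passed the limma test in either direction. At an unadjusted p under 0.05 were 18 of the 189 members in KO ESCs and 23 in KO EBs. Of the 12704 genes tested, 1295 in KO ESCs and 978 in KO EBs were under that limit. Over all tested genes, 0.0315% fell and 0% rose in KO ESCs, and 0% passed in either direction in KO EBs.

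Zfp622, whose yeast relative Rei1 matures the large ribosomal subunit, was at 1186, 544 and 387 at 0, 4 and 8 h in KO ESCs and at 1342, 347 and 32.1 in WT ESCs. In EBs it was at 482, 256 and 122 in KO EBs and 1058, 138 and 30.2 in WT EBs. All 4 conditions were lower at 8 h than at 0 h, and both WT conditions ended near 30, which is about the level of 1 read in WT ESCs and 2 in WT EBs. Its slope was -0.63 ± 0.072 per hour in WT ESCs (SE, limma adjusted p = 0.000483) and -0.60 ± 0.072 in WT EBs (limma adjusted p = 0.000174). Zfp131, a BTB-domain transcription factor, was at 298, 152 and 185 in KO ESCs and 336, 45.5 and 0 in WT ESCs, with a slope of -0.67 ± 0.10 in WT ESCs (limma adjusted p = 0.00169). The other steepest falls in WT ESCs were those of Zfp184 (-0.62 ± 0.12), Zfp358 (-0.60 ± 0.10), Zfp870 (-0.59 ± 0.11), Zfp68 (-0.59 ± 0.13), Zfp606 (-0.59 ± 0.15) and Zfp821 (-0.58 ± 0.10), in log2 per hour with SE. Of the 25 members that fell in WT ESCs, 15 were listed at 0 at 8 h, so that their slopes depend on the pseudocount. Of the 8 steepest falls, all but that of Zfp622 lost their call without WT ESCs of 0 h, and all but that of Zfp606 lost it without WT ESCs of 8 h. Zfp622 was then at -0.48 per hour, Zfp131 at -0.67, and Zfp606 at 0 without the 0 h library.

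In WT EBs the steepest falls after Zfp622 were those of Zfp105 (-0.58 ± 0.14), Zfp870 (-0.56 ± 0.11), Zfp445 (-0.52 ± 0.068), Zfp428 (-0.50 ± 0.053), Zfp217 (-0.49 ± 0.16), Zfp275 (-0.48 ± 0.10) and Zfp574 (-0.47 ± 0.13), in log2 per hour with SE. Zfp217, which binds Mettl3 and restrains m6A in ESCs, was at 372, 347 and 209 in KO EBs and 646, 28.3 and 34.5 in WT EBs. In ESCs it was at 587, 126 and 103 in KO ESCs and 911, 38.1 and 161 in WT ESCs. Every condition was lower at 4 and 8 h than at 0 h, with the smallest drop in KO EBs. Its slope in WT EBs rests on single libraries, as it was 0.056, of the opposite sign, without WT EBs of 0 h and -1.04 without WT EBs of 8 h, and neither passed. Of the falls in WT EBs, 28 of the 39 were of the 50 members with the highest mean level. The 2 sets of falls had 11 members in common (44.0% of those in WT ESCs and 28.21% of those in WT EBs). They were Zfp184, Zfp281, Zfp317, Zfp428, Zfp553, Zfp622, Zfp638, Zfp775, Zfp870, Zfp979 and Zfp985. The sets compare different libraries, but a single fit gave both with the same spread for each gene, so they are not independent. The overlap over all tested genes was not computed. The WT EB count changed with the scale and with the libraries used. When the 8 h libraries of both EB conditions were left out, 0 members were called, with less precision by design. With column totals set equal, 8 were called, 1 rising and 7 falling, with median-ratio scaling likewise 1 and 7, and with ribosomal protein scaling 1 and 6.

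Zfp791, a KRAB gene with 15 fingers on chromosome 8, went the other way. It was at 2610, 3786 and 3354 at 0, 4 and 8 h in KO ESCs and 2737, 5757 and 7644 in WT ESCs. In EBs it was at 1619, 1644 and 1648 in KO EBs and 962, 2599 and 2549 in WT EBs. Its slope was 0.18 ± 0.05 per hour in WT ESCs (SE, limma adjusted p = 0.0426) and 0.17 ± 0.05 in WT EBs (limma adjusted p = 0.0183), and it was the 1 member called as rising in each. Without WT EBs of 0 h the WT EB slope was -0.007, without WT EBs of 8 h it was 0.36, and neither passed. Without WT ESCs of 0 h or of 8 h the WT ESC slope was 0.10 and 0.27, likewise with no call. The other members with the highest slopes did not pass the test. They were Zfp605 (0.19 ± 0.12), Zfp229 (0.19 ± 0.12) and Zfp251 (0.17 ± 0.11) in WT ESCs, Zfp52 (0.28 ± 0.23), Zfp618 (0.14 ± 0.13) and Zfp811 (0.13 ± 0.13) in WT EBs, Zfp438 (0.29 ± 0.17), Zfp239 (0.26 ± 0.12), Zfp446 (0.24 ± 0.18) and Zfp2 (0.19 ± 0.11) in KO ESCs, and Zfp180 (0.18 ± 0.12), Zfp949 (0.15 ± 0.087), Zfp938 (0.10 ± 0.11) and Zfp101 (0.093 ± 0.15) in KO EBs.

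In ESCs, 30 of the 189 members were higher in KO than in WT cells and none was lower. That is 15.87% of the members, where 10.9% of all tested genes were higher and 3.27% lower. Level differences are means over the 3 times, and the members' median was 0.44 on the log2 scale, against 0.18 over all tested genes. At 0 h alone the medians were 0.04 over the members and 0.03 over all tested genes, at 4 h 0.64 and 0.23, and at 8 h 0.68 and 0.26. Before the block the median member was thus at nearly equal levels in KO and WT ESCs, and the difference appeared at the later times. The calls were spread over both kinds of member, 14 of the 89 with a KRAB box and 16 of the 100 without one. Of the members under a mean level of 200, 13.48% were higher in KO ESCs, against 7.681% of the tested genes at 60 to 200. The sign was the same at 0, 4 and 8 h in 21 of the 30, and 12 of the 30 were listed at 0 in WT ESCs at 8 h. With median-ratio scaling, the calls were 25 higher and 3 lower. The summed pluripotency markers were lower in KO ESCs, as given above, and their part in these differences was not tested.

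**Figure D3:**
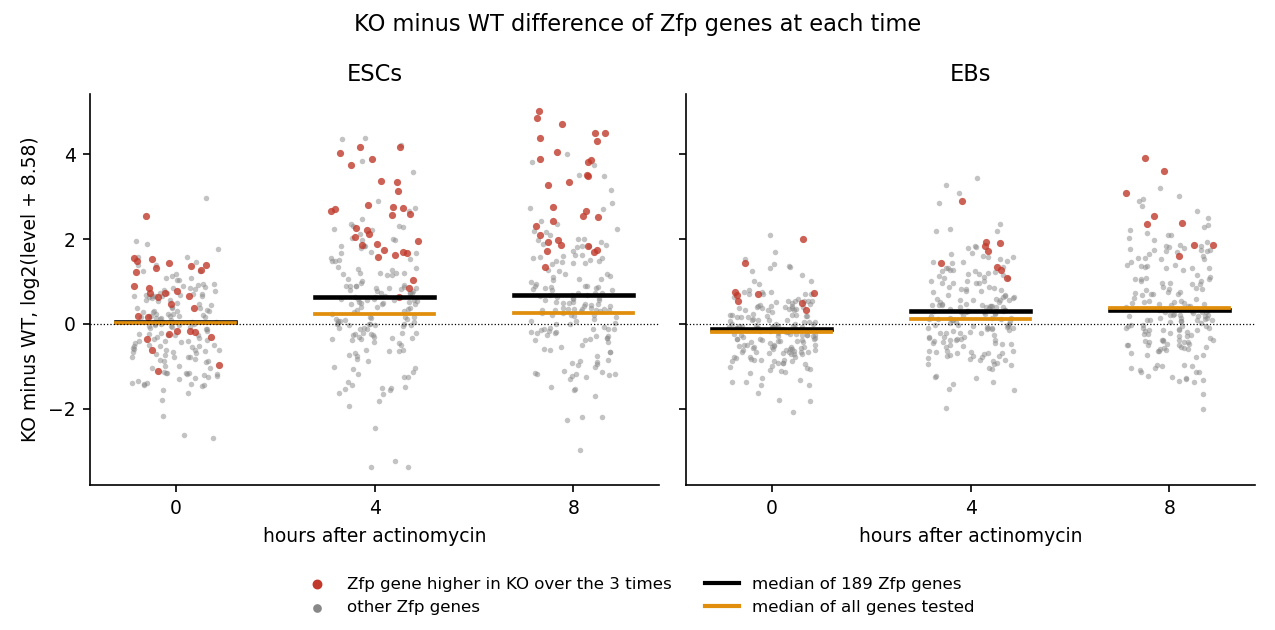
KO minus WT difference of log2 level in ESCs and EBs for each member at 0, 4 and 8 h, with lines at the median of the members and of all tested genes, and with the called members in red. In ESCs the members' median lies at 0.04 at 0 h and at 0.68 at 8 h.

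Zfp639, a gene of chromosome 3 (32510264 to 32520833, GRCm38) with 9 fingers, had the smallest p of all members in this comparison. Its level at 0, 4 and 8 h was 800.1, 947 and 1382 in KO ESCs, against 299.8, 85.1 and 53.0 in WT ESCs. In EBs it was 806, 488 and 396 in KO EBs, compared with 492, 58.6 and 60.9 in WT EBs. The 6 KO levels were all above those of WT cells of the same type and time. At 8 h the counting intervals were 1031 to 1815 in KO ESCs and 4.45 to 216.3 in WT ESCs, and they did not overlap. The difference was 3.08 ± 0.40 in ESCs (SE, limma adjusted p = 0.0002) and 2.04 ± 0.40 in EBs (limma adjusted p = 0.00436). In EBs the call was lost when KO EBs of 0 h were left out (1.91, limma adjusted p = 0.156), when KO EBs of 8 h were left out (1.91, limma adjusted p = 0.161) and with no variance trend.

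Among the other large differences in ESCs, Zfp628, a gene of 16 fingers on chromosome 7 (4915181 to 4922003), was at 158, 118 and 217 in KO ESCs, against 84.5, 0 and 0 in WT ESCs. It was listed at 0 in WT ESCs at 4 and 8 h, where a count of 0 allows levels of up to 74.24 and 98.14. The fitted difference was 3.15 ± 0.73 (SE, limma adjusted p = 0.00963), which depends on the pseudocount. Zfp282, a KRAB gene of chromosome 6, was at 229, 179 and 268 in KO ESCs, against 143, 30.7 and 0 in WT ESCs, a difference of 2.64 ± 0.48 (limma adjusted p = 0.00209). Zfp560, the KRAB gene of chromosome 9 whose finger units were printed, was at 232, 207 and 349 in KO ESCs, against 93.7, 22.3 and 26.8 in WT ESCs, a difference of 2.46 ± 0.46 (limma adjusted p = 0.00255). In each of these genes the KO level was higher at all 3 times. Zfp142, with 34 fingers, was at 572, 413 and 228 in KO ESCs, against 225, 22.8 and 62.8 in WT ESCs (2.26 ± 0.53, limma adjusted p = 0.0108). When KO ESCs of 0 h or of 8 h were left out, the KO level was that of 4 h alone. The calls of Zfp628 (2.73), Zfp282 (2.34), Zfp560 (2.16) and Zfp142 (2.39) were then lost. Zfp449 was at 178, 202 and 41.8 in KO ESCs, against 55.1, 24.8 and 0 in WT ESCs (2.25 ± 0.65, limma adjusted p = 0.0309), a call that was lost under 9 alternatives.

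Zfp991, whose 3′ end has a near-identical copy in a transcript of Zfp992, and Zfp992 both passed. Zfp991 was at 447, 376 and 842 in KO ESCs, against 69.8, 97.5 and 65.4 in WT ESCs, a difference of 2.64 ± 0.39 (SE, limma adjusted p = 0.000518). Zfp992 was at 311, 460.0 and 355 in KO ESCs, against 102, 44.5 and 58.9 in WT ESCs, a difference of 2.37 ± 0.43 (limma adjusted p = 0.00224). Because reads from the end of Zfp991 could also match Zfp992, their values may not be independent. Zfp639, Zfp991 and Zfp992 kept their ESC call under every alternative run.

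**Figure D4:**
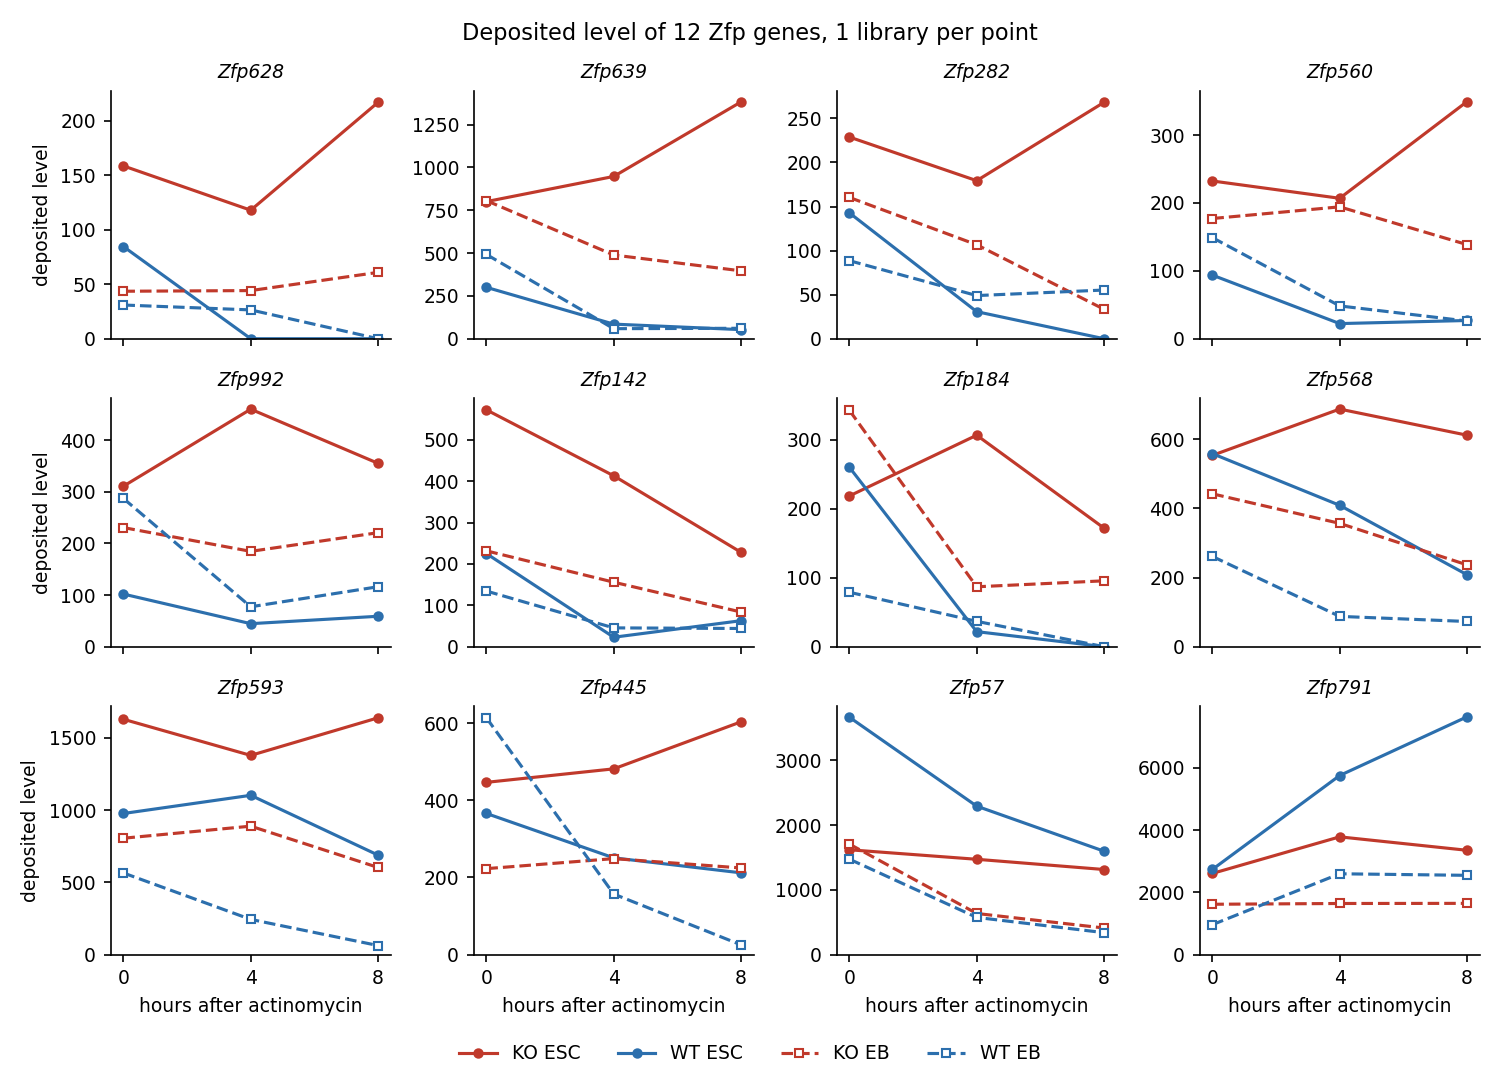
Deposited level (vertical axis) at 0, 4 and 8 h after actinomycin (horizontal axis) in KO ESCs, WT ESCs, KO EBs and WT EBs, for 12 members with 1 library per point and each vertical axis starting at 0. Zfp639 lies higher in KO than in WT cells at all times in both cell types, and Zfp445 is at 224.7 in KO EBs at 8 h, compared with 25.3 in WT EBs.

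The remaining 22 of the 30 members higher in KO ESCs had differences of 1.14 to 2.51. Those with the same sign at all times were Zfp87 (2.17), Zfp870 (2.12), Zfp777 (2.09), Zfp473 (2.04), Zfp574 (2.01), Zfp790 (1.97), Zfp444 (1.77), Zfp637 (1.75), Zfp592 (1.74), Zfp979 (1.68), Zfp771 (1.52), Zfp24 (1.45) and Zfp281 (1.18), in log2 units. In Zfp184, Zfp426, Zfp606, Zfp746, Zfp131, Zfp821, Zfp358, Zfp622 and Zfp710, at least 1 of the times had the opposite sign. Zfp184 was at 218, 306 and 172 in KO ESCs, against 259.9, 21.8 and 0 in WT ESCs, so that the order turned after 0 h.

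In EBs, 9 members were higher in KO than in WT cells and none was lower. That is 4.762% of the members, where 7.66% of all tested genes were higher and 1.56% lower. The members' share is under that of all tested genes, a background not matched for level. Of the members under a mean level of 200, 2.128% were higher in KO EBs, against 1.566% of the tested genes at 60 to 200. The median difference was 0.19 over the members and 0.09 over all tested genes, and by time the members' medians were -0.13, 0.30 and 0.34 at 0, 4 and 8 h, where all tested genes had -0.18, 0.11 and 0.38. With column totals set equal and with ribosomal protein scaling the members' median turned to -0.03 and -0.19, and all tested genes had -0.14 and -0.30. All 9 had the same sign at the 3 times, and 2 of them carried a KRAB box. The summed endoderm markers stood at 360 to 549 in KO EBs, compared with 9146 to 12650 in WT EBs, and the fibroblast markers at 747.9 to 907.5 in KO EBs, compared with 1867 to 2348 in WT EBs. Their part in these differences was not tested.

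Zfp593, whose yeast relative Bud20 acts in export of the large ribosomal subunit, was at 805, 889 and 603 in KO EBs, compared with 565, 244 and 63.0 in WT EBs. It was higher in KO EBs at all times, and the ratio of the 2 levels grew with time. The difference was 1.81 ± 0.27 (SE, limma adjusted p = 0.000442), kept under every alternative run except that without the 8 h libraries of EBs. Zfp568, a KRAB gene that represses a placental transcript of Igf2, was at 442, 357 and 237 in KO EBs, compared with 261, 87.6 and 72.8 in WT EBs, a difference of 1.42 ± 0.32 (limma adjusted p = 0.0105). Zfp771 was at 571, 422 and 452 in KO EBs, compared with 354, 149 and 79.8 in WT EBs (1.50 ± 0.31, limma adjusted p = 0.00648). Zfp184 was at 342, 86.8 and 95.4 in KO EBs, compared with 78.8, 36.7 and 0 in WT EBs (2.23 ± 0.54, limma adjusted p = 0.0161). In these genes no WT value reached the KO value of its time. The others higher in KO EBs were Zfp275 (1.99 ± 0.48), Zfp507 (1.55 ± 0.40), Zfp35 (1.54 ± 0.44) and Zfp710 (1.36 ± 0.35). When KO EBs of 0 h or of 8 h were left out, the KO level was that of 4 h alone. The calls of Zfp275 (2.00), Zfp184 (1.56), Zfp568 (1.51), Zfp771 (1.33), Zfp35 (1.19) and Zfp507 (1.15) were then lost, and that of Zfp710 (1.38) too. Of the 9 members higher in KO EBs and the 30 higher in KO ESCs, Zfp184, Zfp639, Zfp710 and Zfp771 were in both sets. They are 44.44% of the EB set and 13.33% of the ESC set. The sets compare different libraries but share the fit and its spread for each gene, and the overlap over all tested genes was not computed.

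The slopes themselves differed between genotypes in a single member. In EBs Zfp445, a KRAB gene that keeps imprints together with Zfp57, was at 223, 249 and 225 at 0, 4 and 8 h in KO EBs, compared with 614, 157 and 25.3 in WT EBs. The WT EB level was the higher one at 0 h and the lower one at 4 and 8 h, and the counting intervals at 8 h were 134.9 to 351.5 in KO EBs and 1.67 to 111.1 in WT EBs. The KO slope minus the WT slope was 0.53 ± 0.096 per hour (SE, limma adjusted p = 0.0338), and 1.19% of all tested genes passed in that direction and 0% in the other. This call was lost with column totals set equal, with median-ratio scaling, with ribosomal protein scaling and without the filter or the variance trend. In ESCs the same gene was at 447, 482 and 604 in KO ESCs and 366, 251 and 212 in WT ESCs. In ESCs 0 members differed in slope by limma, where 0.0394% of all tested genes passed as higher and 0% as lower. At an unadjusted p under 0.05 were 28 of the 189 members and 1268 of the 12704 genes tested. The smallest p-values were those of Zfp622 (0.43 ± 0.10, limma adjusted p = 0.133), Zfp131 (0.58 ± 0.14, limma adjusted p = 0.142) and Zfp746 (0.68 ± 0.17, limma adjusted p = 0.144).

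Whether the genotype difference itself differed between EBs and ESCs was tested as an interaction. By limma 0 members passed, where 1.5% of all tested genes passed as higher and 1.35% as lower. At an unadjusted p under 0.05 were 21 of the 189 members and 2030 of the 12704 genes tested. The smallest p-values were those of Zfp282 (-2.24 ± 0.68, limma adjusted p = 0.0993), Zfp358 (-2.13 ± 0.67, limma adjusted p = 0.112) and Zfp408 (1.03 ± 0.32, limma adjusted p = 0.112). No single member is therefore shown to respond differently in EBs and ESCs.

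**Figure D5:**
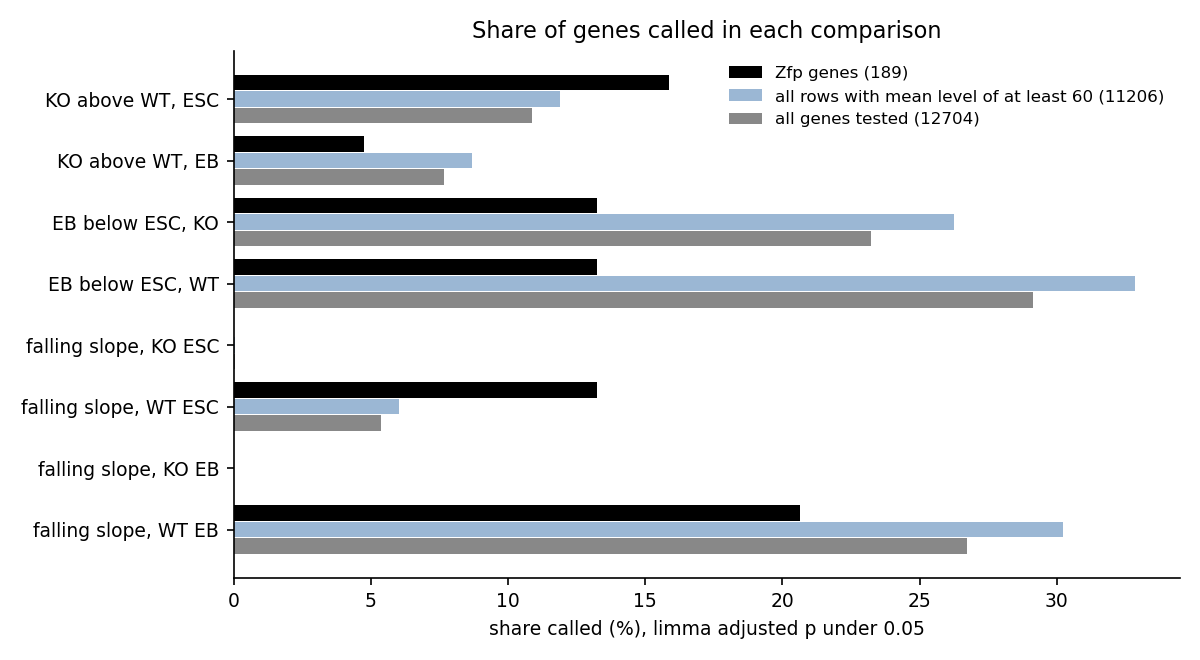
Percent of members and of all tested genes past a limma adjusted p of 0.05 in 8 comparisons and directions, with all tested genes of mean level of at least 60 between them. Members exceed all tested genes among those higher in KO ESCs (15.87% and 10.9%) and those falling in WT ESCs (13.23% and 5.35%), and lie under them in WT EBs (20.63% and 26.7%). All tested genes are not matched to the members for level. Not drawn are falls in WT EBs at low level, 7.801% of members under 200 and 5.397% of tested genes at 60 to 200.

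Between cell types, the deposited scale placed members lower in EBs than in ESCs, as it did for genes in general. In KO cells 25 members were lower in EBs and 0 higher, 13.23% lower, where 23.2% of all tested genes were lower and 0.929% higher. In WT cells 25 were lower and 1 higher, where 29.1% of all tested genes were lower and 3.49% higher. The median EB minus ESC difference was -0.65 in KO cells and -0.41 in WT cells over the members, and -0.61 in KO cells and -0.50 in WT cells over all tested genes. With column totals set equal, the median of all tested genes moved to 0.05 in KO cells and 0.34 in WT cells, 0 members were called in KO cells, and in WT cells 12 were higher and 5 lower in EBs. Median-ratio scaling gave 11 higher and 6 lower, and ribosomal protein scaling 9 higher and 5 lower, in WT cells. The direction over the members thus changed with the scale.

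Zfp57, Zfp408, Zfp593 and Zfp935 kept their call as lower in WT EBs under every alternative run. Zfp57 (chromosome 17, 37001163 to 37010729), a KRAB protein that binds methylated imprinting control regions, was at 1475, 575 and 339.5 at 0, 4 and 8 h in WT EBs, against 3668, 2294 and 1598 in WT ESCs. In KO cells it was at 1708, 636 and 411 in KO EBs, compared with 1620, 1473 and 1315 in KO ESCs. At 0 h the KO EB level was thus above that of KO ESCs, and at 4 and 8 h it was below. The EB minus ESC difference was -1.83 ± 0.23 in WT cells (SE, limma adjusted p = 3.41e-05) and -0.93 ± 0.23 in KO cells (limma adjusted p = 0.011). The KO minus WT difference in ESCs, -0.70 ± 0.23, did not pass (limma adjusted p = 0.0544). Zfp408 was at 1028, 693 and 333 in WT EBs, against 1608, 2333 and 3102 in WT ESCs (-1.86 ± 0.23, limma adjusted p = 2.96e-05). The other large differences in WT cells were those of Zfp54 (-2.29 ± 0.41), Zfp935 (-2.23 ± 0.29), Zfp593 (-2.07 ± 0.27), Zfp579 (-1.87 ± 0.49), Zfp275 (-1.86 ± 0.48) and Zfp423 (-1.58 ± 0.39), a developmental transcription factor. Zfp358 was the 1 member higher in WT EBs, at 272, 90.5 and 79.5 in WT EBs, against 237, 47.5 and 0 in WT ESCs (1.46 ± 0.47, limma adjusted p = 0.0268). Without WT EBs of 0 h or of 8 h the calls of Zfp358 (1.01), Zfp54 (-1.73), Zfp275 (-1.14) and Zfp423 (-1.27) were lost, and those of Zfp275, Zfp423 and Zfp579 were lost under each of the 3 other scalings. In KO cells the largest were Zfp235 (-1.84 ± 0.58), Zfp473 (-1.72 ± 0.45), Zfp592 (-1.66 ± 0.49), Zfp991 (-1.64 ± 0.39), Zfp330 (-1.52 ± 0.42), Zfp580 (-1.52 ± 0.49), Zfp706 (-1.51 ± 0.27) and Zfp553 (-1.37 ± 0.37). All 8 lost their call with column totals set equal, with median-ratio scaling, with no variance trend and without KO EBs of 0 h or of 8 h.

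Of 31 genes listed for a known role, 23 were members and 8 were not. In KO ESCs 3 of the 23 were higher (13.04%, against 10.9% of all tested genes) and 0 lower, and in KO EBs 1 was higher (4.348%, against 7.66%) and 0 lower, so that neither count stands far above the background. Without KO ESCs of 0 h or of 8 h the 3 calls were lost. Zfp281, a transcription factor that acts in the exit from pluripotency, was at 646, 605 and 391 in KO ESCs, against 569, 189 and 111 in WT ESCs (1.18 ± 0.35, limma adjusted p = 0.0353). In EBs it was at 443, 332 and 162 in KO EBs, compared with 681, 128 and 87.9 in WT EBs (0.51 ± 0.35, limma adjusted p = 0.492). In both cell types the KO libraries of 4 and 8 h were above those of WT cells. Zfp24 was at 619.6, 503 and 141 in KO ESCs, against 367, 144 and 32.7 in WT ESCs (1.45 ± 0.42, limma adjusted p = 0.0312). Zfp131 (1.97 ± 0.47) was the other one in ESCs, and Zfp568 was the one in EBs. In WT EBs 9 of the 23 fell after actinomycin (39.13%, against 26.7% of all tested genes). Under each of the 3 other scalings 1 did so, and 0 without the 8 h libraries of both EB conditions. The background is not matched for level. Of all members with a mean level of at least 200, 58.33% fell in WT EBs, against 7.801% of those under 200. Among the 9 were Zfp598, a ubiquitin ligase at collided ribosomes (-0.31 ± 0.06 per hour), Zfp638, which recruits the HUSH silencing complex (-0.23 ± 0.067), and Zfp106 (-0.16 ± 0.053). In WT ESCs 4 fell (17.39%, against 5.35% of all tested genes), all of them losing their call without WT ESCs of 0 h, namely Zfp131, Zfp24 (-0.40 ± 0.091), Zfp281 (-0.28 ± 0.076) and Zfp638 (-0.27 ± 0.067). Members with values near 0 in the KO minus WT comparison of ESCs were Zfp143 (0.011 ± 0.49), a promoter-binding factor, Zfp809 (0.048 ± 0.48), a KRAB silencer of retroviruses, Zfp217 (0.098 ± 0.75) and Zfp462 (0.12 ± 0.36), a repressor of lineage genes in ESCs. Their SEs of 0.36 to 0.75 leave room for differences of that size in either direction.

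Of 17 partners through which KRAB members act, 1 was higher (5.882%) and 2 were lower (11.76%) in KO ESCs, where 10.9% of all tested genes were higher and 3.27% lower, and 0 were called without KO ESCs of 0 h or of 8 h. By limma 0 passed in KO EBs, with 2 of the 17 at an unadjusted p under 0.05, where 2645 of the 12704 genes tested were. Setdb1, the methyltransferase of histone H3 lysine 9 brought by Trim28, was higher in KO ESCs, at 858, 991 and 1358 against 830.2, 311 and 369.7 in WT ESCs (1.18 ± 0.30, limma adjusted p = 0.0151). Trim28, the KRAB co-repressor itself, was lower, at 5830, 6627 and 4978 in KO ESCs against 9483, 10580 and 10180 in WT ESCs (-0.80 ± 0.20, limma adjusted p = 0.014). Hdac2, a histone deacetylase, was lower as well (-1.30 ± 0.26, limma adjusted p = 0.00352). In EBs, 10 of the 17 (58.82%) were lower than in ESCs in each genotype, where 23.2% of all tested genes were lower in KO cells and 29.1% in WT cells. With column totals set equal these counts were 0 in KO cells and 5 in WT cells. After actinomycin 11 (64.71%) fell in WT EBs, where 26.7% of all tested genes fell, and 0 did so under each of the 3 other scalings or without WT EBs of 8 h. These backgrounds are not matched for level, and the partners had mean levels of 118.8 (Atf7ip) to 5506 (Trim28). Of the members with a mean level of at least 200, 39.58% were lower in EBs in KO cells and 43.75% in WT cells. In WT EBs 58.33% of those members fell after actinomycin. The median share left at 8 h over the partners was 120.5% in KO ESCs, 80.68% in WT ESCs, 85.1% in KO EBs and 30.62% in WT EBs. Other zinc-finger genes of the Zbtb, Zscan and Zkscan families, 48 in all, had 94.73% left at 8 h in KO ESCs, 38.55% in WT ESCs, 73.36% in KO EBs and 44.03% in WT EBs. Of these 48, 10 were higher in KO ESCs (20.83%, against 10.9% of all tested genes) and 4 in KO EBs (8.333%, against 7.66%), and 0 were lower in either. The 10 became 2 without KO ESCs of 0 h or of 8 h, and the 4 became 0 without KO EBs of 0 h or of 8 h.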

How the data were processed

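The authors deposited 1 table of normalized levels, a signal per RefSeq transcript that is never below 0, for 12 libraries of 3′-end poly(A) RNA. Tools listed are CASAVA 1.8.2, Bowtie2 2.1.0 and Bowtie, with mm10 as the build, per the submitters' processing notes. The counting, the scaling and the use of strand are not given in the sources used here. Groups came from the sample titles, 1 library in each of 12 groups. Of 19746 entries, 19535 were named by RefSeq ID, 98 by GENCODE, 113 kept their ID, and 38 identical duplicates were dropped. Members and gene lists were chosen with earlier results of these data known.

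Differences were tested with limma 3.58.1 (R 4.3.3, trended variance) on log2(level + 8.58), a pseudocount of 1 ppm of the average total, so changes of low genes are understated. Genes averaging 42.9 (5 ppm) or more were tested, 12704 in all, and all 189 members passed. The fit has 8 coefficients, a line over hours for each of 4 conditions, which leaves 4 residual degrees of freedom and a prior worth 11.1. A level difference is the mean over 0, 4 and 8 h where no library is left out, and a slope is the change per hour. Adjusted p-values are Benjamini-Hochberg over all genes tested. Errors after ± are standard errors (SE) from limma. The test was tried on simulated data. Since nothing says that the samples came from separate cultures, p-values measure the spread of these libraries about the fitted lines, together with the prior. They do not measure the spread between cultures.

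At least 99.8% of values under 100 were whole multiples of a step, within 0.1 of a step, and 50 steps were taken as 1 read, an inference from the values. As the steps are fractions of a read, no count model was run. Intervals are exact Poisson 95% intervals. For a count of 0 the limit given is 3 reads, an upper limit only, which lies below the upper end of such an interval. Both cover counting error only.

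Fingers were found by pattern and KRAB boxes by a HMMER 3.4 profile (96 seeds, E-value of at most 0.001) in translated GENCODE M21 transcripts (GRCm38), and 3′ copies with blastn 2.17.0. Coordinates are GRCm38, counted from 1. For each level and slope difference the text names the 8 called members with the largest rise and fall (same sign at all times for levels). Where none is called it names the 3 lowest p-values. For slopes it names the 8 steepest falls and 4 highest values, and besides these the 6 highest members and the listed roles. Other members that are named were chosen after their values were seen. Alternatives were 3 other scalings, 2 pseudocounts, 2 filters, no variance trend, additive time terms, and leaving out each library. Subtracting the background of silent families and leaving out both EB libraries of 8 h were added after seeing the data.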

Additional observations from a re-analysis of the deposited data

How the results depend on the processing

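Counts are of members called, against 30 for KO minus WT in ESCs, 9 for KO minus WT in EBs, 25 for EB minus ESC in KO cells, 26 for EB minus ESC in WT cells, 26 for the slope in WT ESCs, 40 for the slope in WT EBs and 1 for the slope difference in EBs. The other 4 counts were 0. For KO minus WT in ESCs, the count was 17 both without a filter and when the 8 h libraries of both EB conditions were left out. For KO minus WT in EBs, 2 were called with no variance trend, 3 with additive time terms and 1 without both EB libraries of 8 h, and ribosomal protein scaling gave 4 higher and 2 lower. For EB minus ESC in KO cells, 0 were called with equal totals, 0 with median-ratio factors, 2 with ribosomal protein scaling, 0 with no variance trend, 4 with additive time terms and 0 without both EB libraries of 8 h. For EB minus ESC in WT cells the counts were 17 with equal totals, 17 with median-ratio factors, 14 with ribosomal protein scaling and 13 without both EB libraries of 8 h. For the slope in WT ESCs they were 12 with median-ratio factors, 13 with no filter, 13 with a filter of 20 ppm, 10 with no variance trend and 15 without both EB libraries of 8 h. For the slope in WT EBs they were 8 with equal totals, 8 with median-ratio factors, 7 with ribosomal protein scaling, 14 with no variance trend, 63 with the background of silent families subtracted and 0 without both EB libraries of 8 h. For the slope in KO EBs, 1 was called with a filter of 20 ppm. For the slope difference in EBs the counts were 0 with equal totals, 0 with median-ratio factors, 0 with no filter, 8 with a filter of 20 ppm, 0 with no variance trend, 4 with the background subtracted and 0 without both EB libraries of 8 h, and the 1 called with ribosomal protein scaling was lower. The causes were not tested, except that fewer genes or libraries enter where some are left out. Additive time terms give no slopes.

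Leaving out 1 library at a time gave 12 to 32 members for KO minus WT in ESCs, 1 to 10 for KO minus WT in EBs, 0 to 34 for EB minus ESC in KO cells, 16 to 32 for EB minus ESC in WT cells, 2 to 29 for the slope in WT ESCs, 4 to 50 for the slope in WT EBs, 0 to 6 for the interaction and 0 to 3 for the slope difference in EBs. For KO minus WT in ESCs the count was 12 without KO ESCs of 0 h, 13 without KO ESCs of 8 h and 19 without KO EBs of 0 h. For KO minus WT in EBs it was 1 without KO EBs of 0 h or of 8 h, 4 without WT EBs of 0 h and 5 without KO EBs of 4 h or WT EBs of 8 h. For EB minus ESC it was 0 in KO cells without KO EBs of 0 h or of 8 h, 8 to 14 without KO EBs of 4 h or a KO ESC library, and 16 in WT cells without WT EBs of 0 h or of 8 h. For the slope in WT ESCs it was 2 without WT ESCs of 0 h, 10 without WT ESCs of 8 h and 14 to 16 without any 1 KO EB library. For the slope in WT EBs it was 4 without WT EBs of 0 h or of 8 h. Without its 0 h or 8 h library, the line of a condition fits its remaining libraries exactly. Its level is then that of 4 h alone, and precision is lower by design. The slope of Zfp217 in WT EBs ranged from -1.04 without WT EBs of 8 h to 0.056, the opposite sign, without WT EBs of 0 h, and that of Zfp791 from -0.007, also the opposite sign, without WT EBs of 0 h to 0.36 without WT EBs of 8 h. The EB minus ESC difference of Zfp106 in WT cells was 0.17 with equal totals and 0.16 with ribosomal protein scaling, the opposite sign of its value on the deposited scale. No paired analysis was possible because each group has 1 library and the labels give no replicate numbers, while the additive time terms block on the times that the conditions share.

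Depth limits single values: the median member had 2.44 read equivalents in WT ESCs at 8 h, and 159 of the 189 had 6 or fewer there.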
